A study of Mus musculus with 2 samples.

Results

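The hepatocyte barcodes described here lay between the periportal and the perivenous ends of undamaged mouse liver. They numbered 1596, out of 3243 barcodes that could be placed along this axis. The undamaged library held 59202 barcodes and the series 60788. A barcode marks 1 droplet, and unique molecular identifiers (UMIs) count the transcript molecules caught in it. Collagenase perfusion of the livers of male C57BL/6 mice (C57BL/6J in the study's methods) on a normal diet gave hepatocytes, which were profiled by droplet scRNA-Seq with 3' chemistry, in 1 library from healthy liver (0 h) and 1 library from liver taken 48 h after partial hepatectomy (PHx48h), the surgical removal of part of the liver. The labels give an age of 10 to 12 weeks at surgery, where the study's methods give a somewhat lower one, and name no transgene or drug, and each library came from 1 preparation. With 1 library per group there was no test and no error between mice, so the intervals given are exact 95% counting intervals. They cover counting error only, since molecules of 1 preparation are not independent samples of mice.

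Members were chosen by measured values. Barcodes with more than 30% of their UMIs in the 13 mitochondrial (mt) genes, 3870 in all, were scored by their zone share. This is the share of UMIs from 7 perivenous genes (Glul, Cyp2e1, Cyp1a2, Oat, Slc1a2, Lect2 and Rhbg) among the UMIs of these and 8 periportal genes (Cyp2f2, Sds, Hal, Hsd17b13, Pck1, Ctsc, Ass1 and Asl). Of these, 627 barcodes had fewer than 5 such zone UMIs and were not used. Members had a zone share strictly between the 25th percentile, 0.222, and the 75th, 0.792. Their own shares ran from 0.227 to 0.789, and the nearest barcodes outside lay at the limits themselves, 43 at the lower and 4 at the upper. The 833 barcodes at or below the lower limit are called the periportal end and the 814 at or above the upper limit the perivenous end. The levels of the 15 zone genes, and all differences between the sets that follow from them, are therefore given as a description.

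Blood enters the liver lobule at the portal tract and leaves at the central vein, and hepatocytes along this path divide their work. Periportal cells are known for urea synthesis, gluconeogenesis and secretion of plasma proteins, and perivenous cells for glutamine synthesis and cytochrome P450 metabolism. Hepatocytes between them are best known for hepcidin, the peptide hormone encoded by Hamp, which lowers iron export by acting on the exporter ferroportin and whose transcription is raised by bone morphogenetic protein (BMP) signals through SMAD factors and by interleukin signals through STAT factors. The 4 genes asked about here were Hamp, its paralog Hamp2, Igfbp2, which encodes a secreted binding protein for insulin-like growth factors, and Cyp8b1, the sterol 12-alpha-hydroxylase of bile acid synthesis.

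The upstream stretches of Hamp and Hamp2 are shown because these 2 genes had the most similar pattern of the 4. They are the 250 bases before the RefSeq start of each gene on GRCm38.p6, written 5′ to 3′ on the minus strand, with GGCGCC and TTCNNNGAA in capitals, sought on both strands and without overlap between them here.
Hamp, chr7:30944030-30944279: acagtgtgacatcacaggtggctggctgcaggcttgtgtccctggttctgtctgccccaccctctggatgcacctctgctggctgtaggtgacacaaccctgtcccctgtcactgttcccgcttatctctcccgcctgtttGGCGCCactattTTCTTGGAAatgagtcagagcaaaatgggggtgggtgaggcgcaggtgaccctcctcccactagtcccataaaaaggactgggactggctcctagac
Hamp2, chr7:30924182-30924431: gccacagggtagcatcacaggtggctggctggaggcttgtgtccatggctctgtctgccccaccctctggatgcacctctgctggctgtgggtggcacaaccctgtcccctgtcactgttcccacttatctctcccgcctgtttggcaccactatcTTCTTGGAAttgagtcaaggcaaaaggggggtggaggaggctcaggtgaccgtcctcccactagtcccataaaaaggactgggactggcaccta
GGCGCC is the core of the BMP-responsive element known in the hepcidin promoter, and TTCNNNGAA is the general form of a STAT element. In the Hamp stretch GGCGCC began 109 bases before the start, and the Hamp2 stretch did not hold these letters. TTCNNNGAA began 97 bases before the start of Hamp and 94 bases before that of Hamp2. Of 32851 mouse promoter stretches of the same length, 9.59% held GGCGCC and 7.02% held TTCNNNGAA, so neither is rare. The stretches were identical at 227 of 253 aligned positions (89.7%), and the longest transcripts of both genes at 389 of 437 (89.0%). Reads of near-identical copies can be split between them in counting, so the values of Hamp2 in particular are uncertain. On GRCm38, Hamp lies on chromosome 7 from 30942368 to 30944032, Hamp2 on chromosome 7 from 30922372 to 30924681, Igfbp2 on chromosome 1 from 72824503 to 72852474 and Cyp8b1 on chromosome 9 from 121914356 to 121916305. These spans are from GENCODE, and that of Hamp2 contains the whole stretch shown for it. The annotations thus place the start of Hamp2 differently, and its motif position counts from the RefSeq start only.

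The barcodes of the 3 sets differed in more than zone. Median non-mitochondrial UMIs per barcode were 1317 at the periportal end, 1452.5 in members and 1222.5 at the perivenous end, and the median mt share was 48.1%, 46.2% and 46.4%. Members had a median of 12 zone UMIs, on which a share of 50% has an exact binomial interval of 21.1% to 78.9%, so many single barcodes could have fallen on either side of a limit. Most barcodes of the library, 52587 (88.8%), had under 2% mt UMIs, and their pooled profile had a zone share of 0.636, inside the range of the members. Levels in this pooled profile are given beside the results as the low-mt level. A barcode was called departing when its non-mt UMIs differed from that profile by more than counting at its depth would give, and 82.1% of members (80.1% to 83.9%) were departing, against 85.7% (83.2% to 88.0%) at the periportal and 91.0% (88.9% to 92.9%) at the perivenous end. Of the barcode sequences, 148 occurred in both libraries, 3 of them among members.

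**Figure D1:**
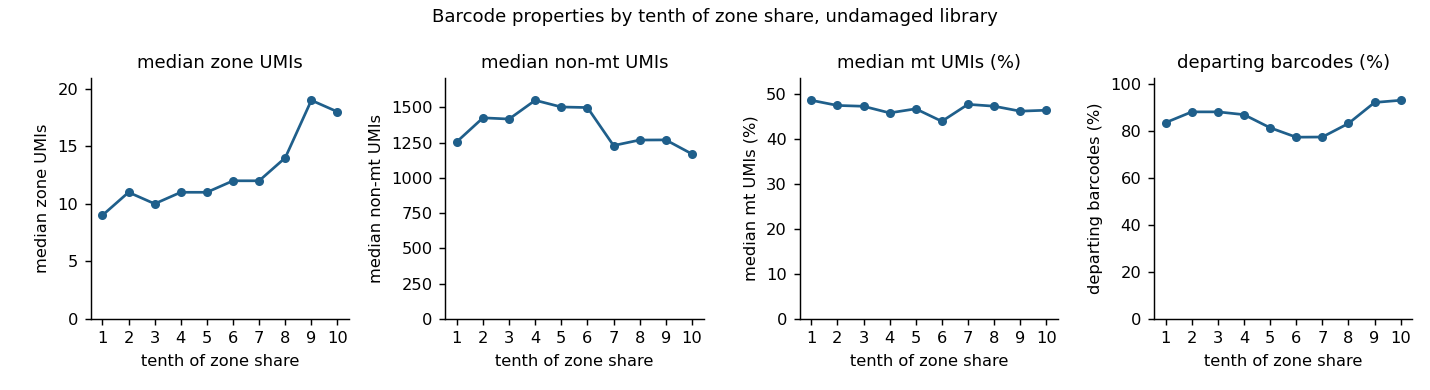
Properties of the barcodes in 10 groups of about equal number ordered by zone share in the undamaged library, from the periportal (1) to the perivenous end (10). Panels show the median zone UMIs, median non-mt UMIs, median percent mt UMIs and percent of departing barcodes. Departing barcodes were fewest in groups 6 and 7, at 77.5% in each, and most frequent in group 10, at 93.2%.

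Transcripts of hepatocytes were found in all members. Alb, Apoa1, Ttr and Trf, all for secreted plasma proteins, had a UMI in 100% of them, and the hepatocyte transcription factor genes Hnf4a and Cebpa were at 90.2 and 91.7 CPM, the UMIs of a gene scaled to a total of 1000000 non-mt UMIs in the set. These values do not set members apart from the low-mt barcodes, where the level of Hnf4a was 75.5 CPM and that of Cebpa 81.9 CPM. Markers of other cell types were scarce. Their summed levels in members were 48.6 CPM for 13 endothelial genes, 35.6 CPM for 10 macrophage genes, 24.3 CPM for 10 stromal genes, 39.5 CPM for 6 cholangiocyte genes, 14.1 CPM for 7 B cell and MHC class II genes, 3.53 CPM for 4 erythroid genes and 1.41 CPM for 8 T and NK cell genes. All 4 neutrophil genes were at 0 in members, as were the endothelial gene Bmp6 and the cholangiocyte genes Krt19, Krt7, Epcam and Cldn4. In all, 3 members (0.188%) held enough UMIs of another type to be set aside, against 1 and 4 barcodes at the periportal and perivenous ends.

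The 4 markers did not share a maximum in members. Hamp was higher in members than at the periportal end and within counting error of the perivenous end, Igfbp2 was highest in members by a small margin, and Hamp2 and Cyp8b1 were highest at the perivenous end. The 1596 barcodes are therefore called intermediate barcodes here, by their rule, and not midlobular cells.

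Hamp was at 402 CPM (370 to 437) at the periportal end, 794 CPM (761 to 827) in intermediate barcodes and 764 CPM (713 to 818) at the perivenous end. The intermediate level was 1.97 times the periportal one (1.80 to 2.17) and 1.04 times the perivenous one (0.959 to 1.13), so only the first difference exceeded counting error. Both were above the low-mt level of 502 CPM. The ratio to the higher end moved with the settings, most of which also change which barcodes are members. With ends beyond the 10th and 90th percentiles and members unchanged it was 1.57. With at least 10 zone UMIs per barcode it was 1.66, with at least 20 it was 2.10, and with a zone share that leaves out Cyp2e1 and Cyp2f2 it was 1.77. With more than 50% mt UMIs it was 0.901, and with limits at the 33rd and 67th percentiles it was 0.930. Under TMM scaling, which moved the median log2 ratio of all genes to the perivenous end from -0.16 to 0.07 and to the periportal end from 0.09 to 0.03, the Hamp ratio was 1.20.

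Hamp UMIs were spread over many intermediate barcodes. Of 2251 Hamp UMIs, 10.1% lay in the 10 barcodes with the most, and the highest barcode held 49. At least 1 Hamp UMI was found in 48.4% of intermediate barcodes. With every barcode thinned to 500 non-mt UMIs, for which 2, 13 and 12 barcodes of the 3 sets were too shallow, the share was 14.8% (12.5% to 17.4%) at the periportal end, 25.8% (23.6% to 28.0%) in intermediate barcodes and 23.6% (20.7% to 26.7%) at the perivenous end. Low-mt barcodes gave 21.8% (20.7% to 23.0%) at a median of 1418 UMIs, and 593 barcodes with markers of other cell types gave 16.7% (13.8% to 19.9%) at 2326 UMIs. The share at the periportal end was within counting error of the barcodes with markers of other cell types and below that of low-mt barcodes. The share at the perivenous end was within counting error of the low-mt barcodes, and the intermediate share lay above both references. The part of RNA shared between droplets in these shares was not tested.

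Hamp2 had 15, 78 and 48 UMIs in the periportal, intermediate and perivenous sets. These gave 10.9 CPM (6.07 to 17.9), 27.5 CPM (21.7 to 34.3) and 44.0 CPM (32.5 to 58.4). The intermediate level was 0.625 times the perivenous one (0.431 to 0.915), above the low-mt level of 12.1 CPM, and 38.5% of its UMIs lay in 10 barcodes. Its ratio was above 1 with at least 10 zone UMIs (1.35), at least 20 (2.68), ends beyond the 10th and 90th percentiles (1.18) and a zone share without Cyp2e1 and Cyp2f2 (1.54), the same settings that raised the Hamp ratio most.

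Igfbp2 was at 1164 CPM (1108 to 1222) at the periportal end, 1336 CPM (1293.5 to 1379) in intermediate barcodes and 737 CPM (687 to 790.1) at the perivenous end. It was 1.15 times the periportal level (1.08 to 1.22) and 1.81 times the perivenous one (1.68 to 1.96), differences larger than counting error. The first did not exceed counting error with at least 20 zone UMIs (1.02, 0.942 to 1.11), without Cyp2e1 and Cyp2f2 in the zone share (1.07, 0.996 to 1.14) or with the share from Cyp2e1, Oat and Lect2 against Sds, Hsd17b13, Ctsc and Asl (0.989, 0.925 to 1.06). The intermediate level was close to the low-mt level of 1316 CPM. After thinning, 48.3% of intermediate barcodes (45.8% to 50.8%) and 48.3% of low-mt barcodes (46.9% to 49.6%) held an Igfbp2 UMI, so no difference from the low-mt barcodes was detectable at this depth. Barcodes with markers of other cell types gave 32.7% (28.9% to 36.7%).

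Cyp8b1 was graded from end to end. It was at 386 CPM (354 to 421) at the periportal end, 448 CPM (424 to 474) in intermediate barcodes and 555 CPM (511 to 601) at the perivenous end. The intermediate level was 0.808 times the perivenous one (0.733 to 0.892), and the low-mt level of 489 CPM lay between them. After thinning, 21.6% of intermediate barcodes (19.6% to 23.7%), 20.9% of low-mt barcodes (19.8% to 22%) and 13.8% of barcodes with markers of other cell types (11.2% to 16.9%) held a Cyp8b1 UMI.

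In 10 groups of about equal number, ordered by zone share, the Hamp maximum was resolved. From group 1 to group 10 the levels were 434, 370, 485, 446, 576, 1048, 1158, 1165, 839 and 513 CPM. Groups 6 to 8, with median zone shares of 0.50, 0.639 and 0.792, stood above all other groups, and groups 7 and 8 did not differ beyond counting error. Group 8 was 2.68 times group 1 (2.28 to 3.17) and 2.27 times group 10 (1.94 to 2.67). The 75th percentile runs through group 8, so the rule for members divided the maximum and put part of it into the perivenous end. These 3 groups were above the low-mt level, and their share of departing barcodes was 77.5%, 77.5% and 83.3%, against 93.2% in group 10. The part of that difference in the Hamp pattern was not tested.

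Hamp2 had the same shape on few molecules. Groups 6 to 8 held 22, 29 and 29 UMIs and group 9 held 19, while each of groups 1 to 5 held between 3 and 10. Its level was 63.0 CPM in group 8 (42.2 to 90.5), 2.98 times group 1 (1.41 to 6.85) and 2.66 times group 10 (1.26 to 6.13). Igfbp2 was nearly level from group 1 to group 4, at 1170.5 to 1203 CPM, reached 1468 CPM (1360.2 to 1582) in group 7 and was at 459 CPM (397 to 528) in group 10. Its highest group was 1.22 times group 1 (1.09 to 1.37) and 3.20 times group 10 (2.72 to 3.77), so the larger difference was the low level at the perivenous end. Cyp8b1 was highest in group 8, at 598 CPM, only 1.07 times group 10 (0.893 to 1.27). Its rise was not even, with 446 CPM in group 4 (396 to 499) and 417 CPM in group 7 (361 to 480).

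**Figure D2:**
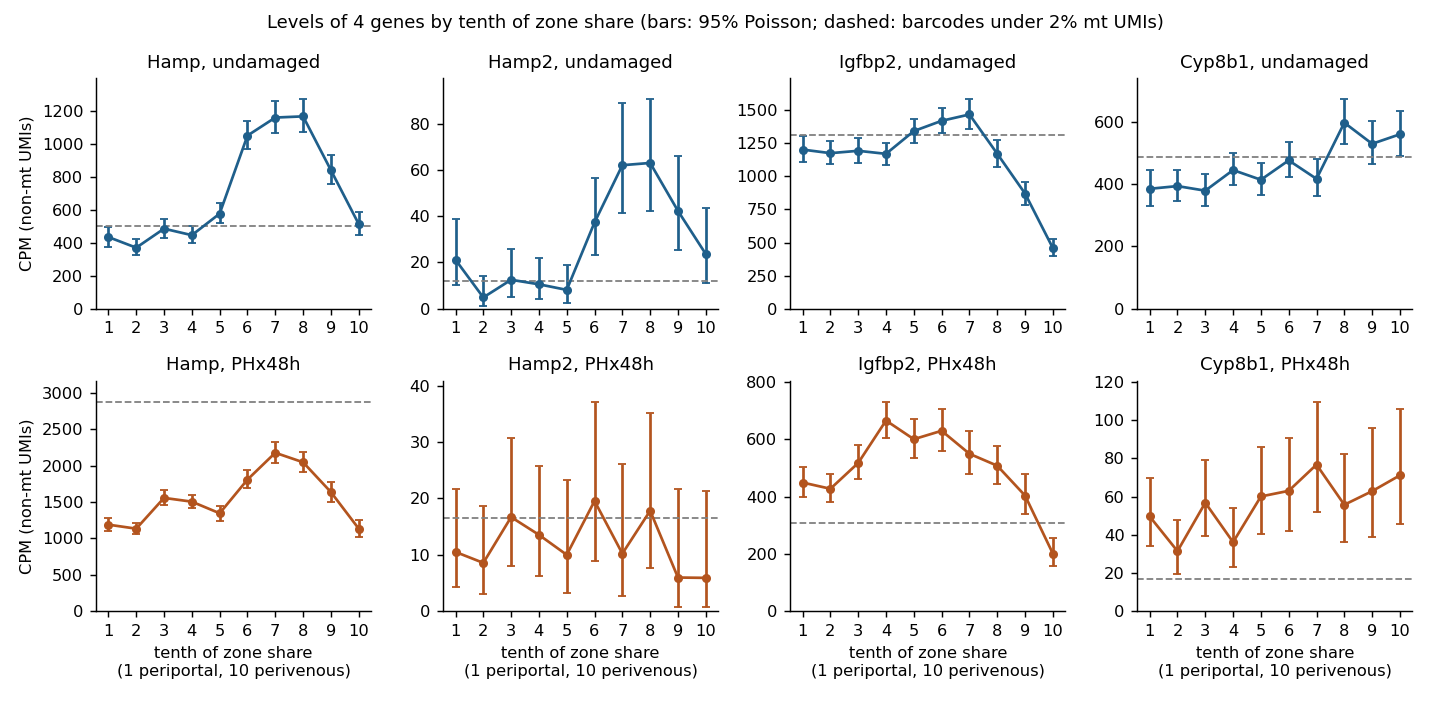
Level in CPM of Hamp, Hamp2, Igfbp2 and Cyp8b1 in 10 groups of barcodes ordered by zone share (1 periportal, 10 perivenous), with 95% Poisson intervals, in the undamaged library (upper row) and the PHx48h library (lower row, with groups set in that library). Dashed lines mark the level in barcodes under 2% mt UMIs. Hamp was highest in groups 6 to 8 in both libraries, at 1048 to 1165 CPM and at 1807 to 2175 CPM, and in the PHx48h library it lay below the dashed line in every group.

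The same order was examined in the PHx48h library, where 763 barcodes could be placed. The 25th and 75th percentiles of zone share were 0.115 and 0.481 there, so its groups and sets cover other zone shares than those at 0 h. Hamp was highest there in groups 6, 7 and 8, at 1807, 2175 and 2045 CPM, and group 7 was 1.83 times group 1 (1.66 to 2.02) and 1.92 times group 10 (1.70 to 2.17). The low-mt level of that library was higher than all of them, at 2872 CPM. Igfbp2 was highest in group 4, at 665 CPM (605 to 730.4), 1.48 times group 1 (1.28 to 1.72) and 3.30 times group 10 (2.55 to 4.33). Cyp8b1 and Hamp2 were too low to order, at no more than 76.7 and 19.5 CPM in their highest groups. In intermediate barcodes of the 2 libraries, Hamp was at 794 CPM at 0 h and 1669 CPM at 48 h, and Cyp8b1 at 448 and 56.0 CPM. These values compare 2 libraries without replicates, with different limits of zone share and with median non-mt UMIs of 1452.5 and 4600.

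Because the maximum of Hamp lay off centre, members were also divided at the median zone share of 0.429, a division made after the data were seen. The 792 barcodes on the periportal side had 518 CPM of Hamp (483 to 555) and the 804 on the perivenous side 1121 CPM (1064 to 1180.5). Between these sides, 338 of 1095 genes (30.9%) were at least 25% higher on the perivenous side and 51 (4.66%) on the periportal side, so Hamp was 1 of many genes that differed. The perivenous-side level was 1.47 times that of the perivenous end (1.35 to 1.60). Only 1 alternative reversed this, the zone share from Cyp2e1, Oat and Lect2 against Sds, Hsd17b13, Ctsc and Asl, with 0.928. That share leaves out Glul, Slc1a2 and Rhbg, genes of the cells next to the central vein, and also Cyp1a2, Cyp2f2, Hal, Pck1 and Ass1. It placed 1966 barcodes, against 3243 by all 15 genes. Glul was then at 580 CPM in the middle set and 1117 CPM at the perivenous end, against 138 and 1540 CPM by all 15 genes. The part of these differences in the reversal was not tested. Hamp2 had 11.7 CPM (6.92 to 18.5) on the periportal side and 46.3 CPM (35.3 to 59.6) on the perivenous side.

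The number of genes with a maximum or minimum in intermediate barcodes was small and depended on the settings. Among 1210 genes with at least 100 CPM in 1 of the 3 sets, without mt and zone genes, 832 (68.8%) lay between the ends, 183 (15.1%) above both and 195 (16.1%) below both. Taking a difference of at least 25% as the call, 3 genes (0.248%) were higher than at both ends and 2 (0.165%) were lower. With TMM scaling 19 were higher and 0 lower, and with scaling that leaves out the zone genes and the 20 most abundant genes 7 were higher and 3 lower. With at least 10 zone UMIs 25 were higher and 3 lower, with at least 20 zone UMIs 67 and 17, and with more than 50% mt UMIs 33 and 36.

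The 3 higher genes, Rps29, Rpl39 and Rps12, encode ribosomal proteins. Rps29 was at 314, 486 and 348 CPM in the periportal, intermediate and perivenous sets, 1.40 times the higher end (1.245 to 1.57). Rpl39 was at 130.2, 201 and 154 CPM, and Rps12 at 103, 137 and 109 CPM. Their low-mt levels were higher than any of these, at 1793, 726 and 370 CPM. The next by ratio also had low-mt levels above all 3 sets: Rplp1 for an acidic ribosomal protein, Cox7c and Cox7a2 for subunits of cytochrome c oxidase, Cth for cystathionine gamma-lyase, Arg1 for arginase, Sdc2 for a heparan sulfate proteoglycan, and Rpl13. Cox7c was at 236, 434 and 355 CPM with a low-mt level of 1963 CPM, and Arg1 at 129, 153 and 99.0 CPM with a low-mt level of 321 CPM. Rpl13 reached 100 CPM only in intermediate barcodes and so entered the comparison only through them.

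The low-mt level moved with this ratio across genes. Of the 183 genes above both ends at any size, 144 (78.7%) had a low-mt level above all 3 sets, against 510 of all 1210 (42.1%), and of the 41 that were at least 1.1 times both ends, 39 did. All 69 ribosomal protein genes did, and 29 of them (42.0%) were above both ends. The part of RNA shared between droplets in these maxima was not tested. Hamp was 1 of the 39 genes above both ends whose low-mt level was not above all 3 sets, at 402, 794 and 764 CPM with a low-mt level of 502 CPM. In the PHx48h library the low-mt level of Hamp, 2872 CPM, was above every group.

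**Figure D3:**
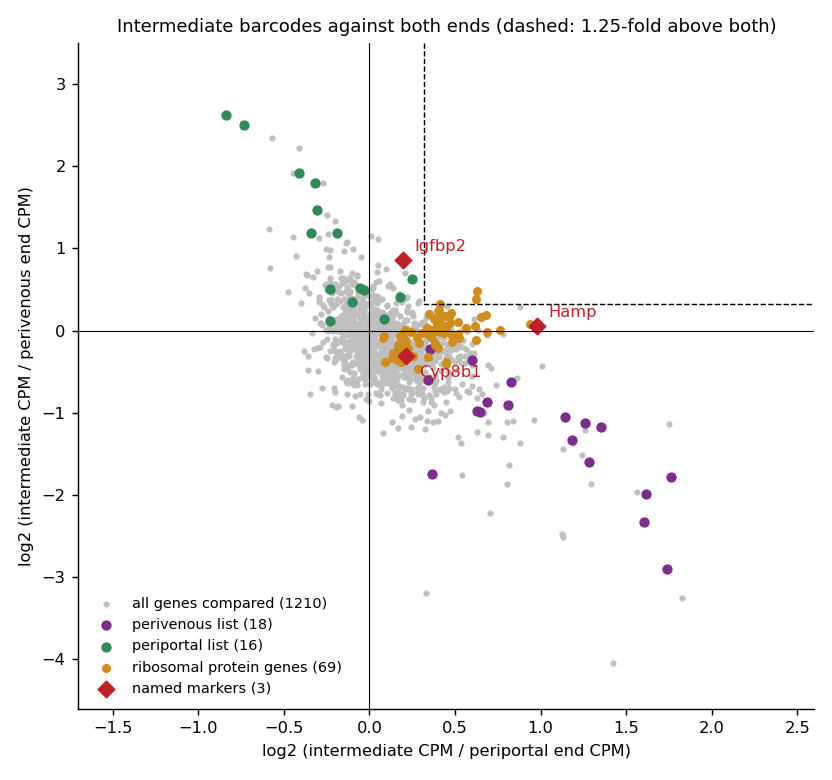
Each point is 1 of 1210 genes, with the log2 ratio of intermediate to periportal CPM on the x axis and of intermediate to perivenous CPM on the y axis (1 gene lies outside the axes). Genes in the upper right corner, inside the dashed lines, were at least 25% above both ends, and these were 3 ribosomal protein genes. Perivenous and periportal list genes run from lower right to upper left, and Hamp lies to the right of zero on the x axis and near zero on the y axis.

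The 2 lower genes were Fggy, for a carbohydrate kinase, and Tm7sf2, for a sterol reductase of cholesterol synthesis. Fggy was at 80.3, 63.1 and 108 CPM and entered the comparison only through its level at the perivenous end, and Tm7sf2 at 168, 131 and 182 CPM. The other genes with the lowest ratio to the lower end did not reach the fold. They included Derl1, which acts in removal of misfolded proteins from the endoplasmic reticulum, at 214, 167 and 206 CPM, and Elovl1, a fatty acid elongase, at 155, 130.4 and 164 CPM. Raph1, Snrnp70, Ncln, Jmjd8 and Cyp4f13 also belonged to this group, with intermediate levels of 64.5 to 115 CPM, and the low-mt level of Snrnp70 was 28.3 CPM.

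More separate ends and the divided members gave further genes. With ends beyond the 10th and 90th percentiles, 13 of 1266 genes (1.03%) were higher in intermediate barcodes and 13 (1.03%) lower, and Hamp had the highest ratio, 1.57 (1.36 to 1.81), at 434, 794 and 507 CPM. Among the rest were Ndufb11, Ndufa1 and Atp5j2 of the respiratory chain and ATP synthase, 4 ribosomal protein genes, the nuclear transcript Malat1, Wfdc21, and the lipid enzyme genes Scd1 and Acsl5. The ribosomal protein genes Rpl6 and Rpl13 entered this comparison only through intermediate barcodes. In 10 of the 13 the low-mt level was above the intermediate one, but not in Hamp, Malat1 and Acsl5, and it was in 55.3% of all genes compared there. On the perivenous side of the divided members, 34 of 1226 genes (2.77%) were higher than at both ends. In 32 of them the low-mt level was higher still, as it was in 54.5% of all genes compared, 16 were ribosomal protein genes, of which 72 were among the 1226, and the exceptions were Hamp and Ccbl2. Ccbl2, a kynurenine aminotransferase gene, was at 80.3, 106 and 73.4 CPM and entered the comparison only through the set where it was highest. Rpl6, Rpl10, Rpl13, Uqcrc2 and Myo6 also entered only through that set. Hamp passed the fold there in 16 of 18 settings, and in the undivided members in 5 of 18. Among other genes, Rpl39, Rps12 and Rps29 also passed there in 16 settings and Cox7c in 17, and Rps29 passed in 16 in the undivided members. The settings use the same library and the division was made because of Hamp, so these counts are no independent support. On the periportal side 3 of 1211 genes (0.248%) were higher, Malat1, Scarb1, for an HDL receptor, and Impa1, for an inositol monophosphatase. Impa1, whose interval of 0.96 to 1.65 held 1, was at 75.2, 101 and 80.7 CPM. It entered the comparison only through the set where it was highest. These 3 genes were named after their values were seen. The genes Ccbl2, Rpl6, Rpl10, Uqcrc2, Myo6, Ndufb11, Ndufa1, Atp5j2, Wfdc21 and Acsl5 were likewise named after their values were seen.

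**Figure D4:**
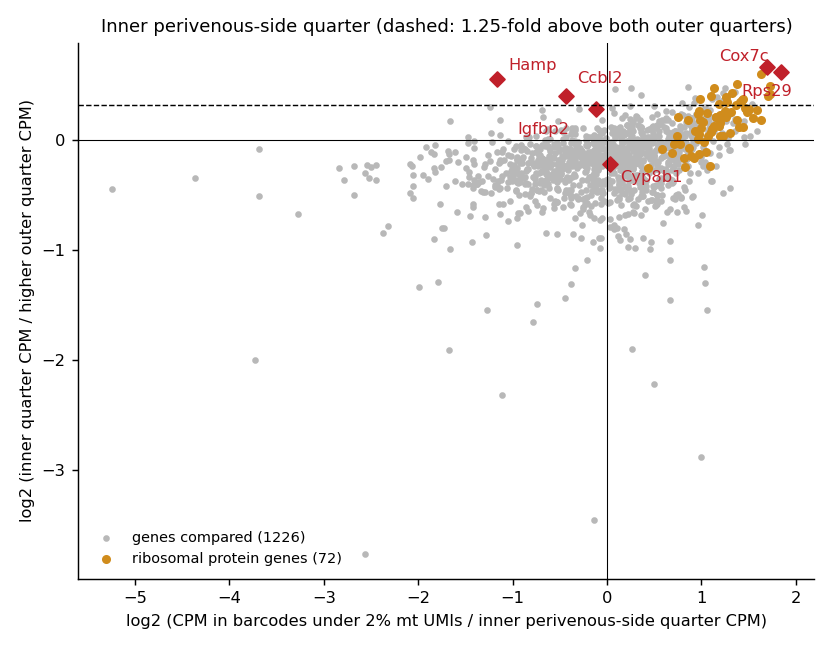
Genes compared between the perivenous side of the divided members and both ends. The x axis is the log2 ratio of the low-mt level to the level in that set, and the y axis the log2 ratio of that set to the higher end, with a dashed line at the 25% difference. Ribosomal protein genes gather at the upper right, and Hamp, at 1121 CPM with a low-mt level of 502 CPM, lies at the upper left.

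The compared genes around hepcidin lay mostly between the ends, as most genes did. Of a list of 34 genes for hepcidin, its regulators and iron handling, 12 reached 100 CPM, 0 were higher or lower than both ends at the fold, 11 lay between the ends and Hamp itself was the only one above both. Over all 1210 genes 68.8% lay between and 0.248% were higher at the fold. The BMP ligand genes belong to endothelial cells, and in intermediate barcodes Bmp6 was at 0 and Bmp2 had 7 UMIs. Receptors and co-receptors were low or level. Tfr2, the iron-sensing transferrin receptor, was at 246, 242 and 221 CPM, Hfe2, the BMP co-receptor hemojuvelin, at 101, 102 and 116 CPM, and the receptor genes Bmpr1a and Bmpr2 had 46 and 55 UMIs in intermediate barcodes. Tmprss6, a protease that lowers hepcidin signalling, was higher at the perivenous end, at 784, 815 and 1012 CPM. The BMP target genes Id1, Smad6 and Smad7 had 1, 2 and 14 UMIs in intermediate barcodes, too few to order the sets. Among iron carriers, transferrin (Trf) was at 21651, 19129 and 13182 CPM and hemopexin (Hpx) at 9669, 7626 and 3354 CPM, both highest at the periportal end. The ferritin genes Fth1 and Ftl1 ran the other way, with Fth1 at 534, 639 and 761 CPM.

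Genes of the other markers' pathways lay between the ends about as often as all genes did. Of 5 insulin-like growth factor genes at this level (of 16 listed), 0 passed the fold against both ends and 3 lay between them. Igf1 was at 1405 CPM at the periportal end, 1368 CPM in intermediate barcodes and 958 CPM at the perivenous end, and Igfbp4 was level, at 1376, 1383 and 1344 CPM. Igfbp1 was low and ran against Igfbp2, at 25.3, 49.7 and 94.5 CPM. Of 16 bile acid genes compared (of 26 listed), 12 lay between the ends, beside 68.8% of all genes. Cyp7a1, the rate-limiting enzyme of bile acid synthesis, was at 19.5, 66.3 and 227 CPM, a steeper gradient than that of Cyp8b1. Cyp7a1 entered the comparison only through the perivenous end, so the choice favours this contrast. The uptake transporter Slco1b2 was at 763, 1312 and 3217 CPM, while Slc10a1, for the main bile salt uptake carrier, was nearly level, at 433, 418 and 395 CPM.

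Zonated genes outside the rule took intermediate values. All 18 genes compared of a perivenous list (24 listed) lay between the ends, and all 18 were at least 25% above the periportal end, as were 242 of 1210 genes (20%). The perivenous end was at least 25% above intermediate barcodes for 17 of them, and for 401 of all genes (33.1%). The cytochrome P450 gene Cyp2c29 was at 709, 1809 and 4088 CPM, Gulo, whose enzyme completes vitamin C synthesis, at 117, 356 and 1786 CPM, and Cyp2a5 at 58.6, 195 and 1457 CPM. Slc13a3, a dicarboxylate transporter gene, and Lpl, for lipoprotein lipase, were nearly limited to the perivenous end, at 7.76 against 127 CPM and 17.98 against 171 CPM. The non-coding Tbx3os1 had 0 UMIs at the periportal end, 4.58 CPM in intermediate barcodes and 127 CPM at the perivenous end. Slc13a3, Lpl and Tbx3os1 entered the comparison only through the perivenous end and were named for their ratio between the ends, so the choice favours this contrast. Of the 18 list genes, Cyp7a1 also entered only through the perivenous end.

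Of 16 periportal list genes compared (20 listed), 13 lay between the ends and 3, Cps1 and Arg1 among them, above both. None was higher than the periportal end at the fold, 4 were lower (24 of all genes, 1.98%, were) and 13 were higher than the perivenous end (149 of all genes, 12.3%, were). Cdh1, which encodes E-cadherin, was at 293, 177 and 31.2 CPM. The sulfotransferase gene Sult5a1 was at 111, 62.0 and 10.1 CPM and entered the comparison only through the periportal end. Hsd17b6, a steroid dehydrogenase gene, Aspg, an asparaginase gene, and Slc22a7, an organic anion transporter gene, were the other 3 with the lowest perivenous to periportal ratio, and Aspg was at 444, 334 and 71.5 CPM. Alb was at 55623, 48887 and 21521 CPM.

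Intermediate barcodes were nearer to the periportal end than to the perivenous one, as they already were in the zone share that defines the sets. Median zone shares were 0.143, 0.439 and 0.909 in the periportal, intermediate and perivenous sets. The part of this spacing in the positions below was not tested. For each gene that differed by at least 25% between the ends, the position of the intermediate level was computed on the log2 scale, from 0% at the periportal to 100% at the perivenous end. The median was 36.3% over 578 genes higher at the perivenous end, of which 70.8% were nearer the periportal end, and 22.6% over 169 genes higher at the periportal end, of which 91.1% were. A further gene, with 0 UMIs at the periportal end, had no position. Of all 1210 genes, 579 (47.9%) and 169 (14.0%) were higher at each end, and under TMM scaling these numbers were 283 and 314, with median positions of 40.9% and 22.2%. The position moved past the middle with at least 20 zone UMIs per barcode, to 53.2% for genes of the perivenous end, and with the share from Cyp2e1, Oat and Lect2 against 4 periportal genes, to 64.1%. With more than 20% mt UMIs it was near the middle, at 49.3% for genes of the perivenous end, of which 50.25% were nearer the periportal end.

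**Figure D5:**
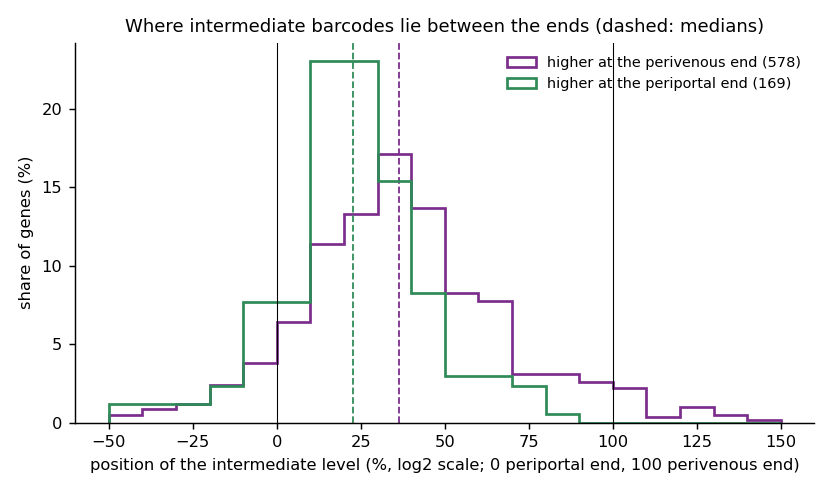
Position of the intermediate level between the ends for genes higher at the perivenous end (578) and at the periportal end (169), in percent on the log2 scale, with 0 the periportal and 100 the perivenous end. The y axis is the share of genes in percent, values beyond the axis are placed in the outermost bins, and dashed lines mark the medians of 36.3% and 22.6%.

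The zone genes themselves, whose levels the rule fixes, showed different spacing. Cyp2e1, a P450 enzyme gene, gave 31.8% of the zone UMIs of members and had the position nearest the perivenous end, 57.9%, at 619, 2782 and 8286 CPM. Glul, for glutamine synthetase, was at 49.2, 138 and 1540 CPM, and Slc1a2, for a glutamate transporter, at 7.96, 40.5 and 683 CPM, a position of 36.6%. Among periportal genes, Cyp2f2, the largest at 24.4% of zone UMIs, was at 3152, 2133 and 380 CPM, a position of 18.5%. Ass1, for argininosuccinate synthase, was at 988 CPM at the periportal end, 987 CPM in members and 556 CPM at the perivenous end. A share from Glul, Cyp1a2, Slc1a2 and Rhbg against Cyp2f2, Hal, Pck1 and Ass1 placed 1029 barcodes in the middle. Cyp2e1, not used in that share, was still graded, at 1196 CPM (1127.5 to 1268), 2323 CPM (2262 to 2385) and 7999 CPM (7808 to 8194). Asl, also not used there, fell only from 418 CPM to 396 and 347 CPM. By the share from Cyp2e1, Oat and Lect2 against Sds, Hsd17b13, Ctsc and Asl, the unused Ass1 was not graded. Ass1 was then at 821 CPM (772 to 872), 893 CPM (849 to 938) and 832 CPM (770 to 898). The other zone genes, each by the share that left it out, rose or fell from end to end in the direction of their list.

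Metabolic groups differed in how they lay between the ends. All 9 fatty acid oxidation genes compared (19 listed) lay between the ends, with a median log2 ratio of 0.39 to the periportal and -0.55 to the perivenous end, beside 0.09 and -0.16 over all genes. Of 6 urea cycle genes compared (9 listed), 3 were above both ends by less than the fold, and Cps1, for the first and rate-limiting enzyme, was at 1917, 2171 and 1641 CPM with a low-mt level of 4332 CPM. Of 15 cholesterol synthesis genes (19 listed), 11 lay between the ends and 3 below both, beside 68.8% and 16.1% of all genes. Their median log2 ratio to the periportal end was 0.08, and -0.01 under TMM and under scaling without the most abundant genes. Of 9 lipogenesis genes (16 listed), 3 lay above, 3 below and 3 between, and Scd1, the stearoyl-CoA desaturase gene, was at 1130.1, 1313 and 994 CPM, 1.16 times the higher end (1.095 to 1.23). The medians of the lipogenesis genes were near 0, at 0.01 to the periportal and -0.05 to the perivenous end, and changed sign under TMM, to -0.04 and 0.16.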

How the data were processed

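The authors deposited raw UMI counts per gene and barcode, made with Cell Ranger (version not given in the sources used here) on mm10 per the submitters' processing notes. The deposited counts were whole numbers for 27998 genes, without normalization. Each library was grouped by its labelled time point. UMIs of each set were summed and expressed as CPM of non-mitochondrial UMIs, in Python 3.11.15 with NumPy 2.4.6, SciPy 1.17.1, pandas 2.3.3 and Scanpy 1.11.5. Intervals are exact Poisson, Clopper-Pearson or conditional binomial. A gene was compared at 100 CPM or more in 1 of 3 sets and called at a difference of at least 25% from both ends, with no test. This choice favours a high level in the set through which a gene entered, also for list genes where the text does not name it. Named genes were the 10 highest and 10 lowest by ratio to the ends, the 5 steepest in each direction, the markers, the 15 zone genes and up to 4 genes per list with the highest level, leaving out genes with 20% or more of their UMIs in 10 barcodes. Other list members are named for their role. The members, markers and all 26 gene lists were chosen with earlier results of these data known. Scrublet called 1 of 3870 barcodes a doublet (0.0258%), which cannot be taken as a working call, so doublets remain. The code for the calls was run on simulated counts with known folds, which checks the code and not the results given here. Gene coordinates came from GENCODE annotation of GRCm38, and 129 of 129 genes had a match. Promoter sequences came from RefSeq. Thinned shares of low-mt barcodes used every 10th of them, 5259 in all. Some genes that the rule names are not reported here.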

Additional observations from a re-analysis of the deposited data

How the results depend on the processing

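Over 17 alternatives the ratio of intermediate barcodes to the higher end ran from 0.901 to 2.10 for Hamp, 0.324 to 2.68 for Hamp2, 0.989 to 1.23 for Igfbp2 and 0.773 to 0.934 for Cyp8b1. With at least 10 zone UMIs, 25 genes were higher than at both ends, and Hamp was at 1.66 and Hamp2 at 1.35. With at least 20, 67 were higher and 17 lower, with Hamp at 2.10, Hamp2 at 2.68 and Igfbp2 at 1.02. More than 20% mt UMIs gave 21 higher. More than 50% gave 33 higher and 36 lower, with Hamp at 0.901, Hamp2 at 0.362, Igfbp2 at 1.23 and Cyp8b1 at 0.923. The 33rd and 67th percentiles gave 1 higher and 5 lower, with Hamp at 0.930. Ends beyond the 10th and 90th percentiles gave 13 and 13, with Hamp at 1.57 and Hamp2 at 1.18. The zone share from Glul, Cyp1a2, Slc1a2 and Rhbg against 4 periportal genes gave 10 higher and 15 lower, with Hamp at 1.33 and Hamp2 at 0.947. The share from the remaining 7 genes gave 21 higher, with Hamp2 at 0.324, Igfbp2 at 0.989, Cyp8b1 at 0.895 and the perivenous side of the divided members at 0.928 for Hamp. Without Cyp2e1 and Cyp2f2 in the share, Hamp was at 1.77, Hamp2 at 1.54 and Igfbp2 at 1.07. Departing barcodes gave Hamp at 1.14 and Hamp2 at 0.963. Without the 5% deepest barcodes 5 were higher and 6 lower, and after thinning to 500 UMIs 12 and 28. Scaling without the zone genes and the 20 most abundant gave 7 higher. TMM gave 19 higher and 0 lower, with Hamp at 1.20 and Cyp8b1 at 0.934. A minimum of 50 CPM gave 10 higher and 19 lower, no minimum 644 and 898, and a fold of 1.5 gave 0 and 0. Apart from fewer genes or barcodes entering by construction, the cause was not tested. Leaving out barcodes with markers of other cell types or Scrublet doublets, and averaging single-barcode CPM, moved none of these results past its counting interval or 1.5 times its count. No paired analysis was possible because each group had 1 library. Depth limits Hamp2 most, with 141 UMIs in the 3 sets.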

Other observations

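RNA for secreted proteins was a large part of the non-mitochondrial RNA of intermediate barcodes and was lowest at the perivenous end. The 27 plasma protein genes summed to 356408 CPM at the periportal end, 333369 CPM in intermediate barcodes and 276479 CPM at the perivenous end, 23 of them lay between the ends (68.8% of all genes did), and 15 were at least 25% above the perivenous end (12.3% of all genes were). All 10 acute phase genes compared lay between the ends, and 9 were at least 25% above the perivenous end, among them Orm1, for an acid glycoprotein, at 4910.3, 3786 and 2641 CPM with a low-mt level of 966 CPM. Apoe ran the other way, at 37983, 38286 and 47407 CPM. Among major urinary protein genes, whose near-identical copies make single values uncertain, Mup17 was at 1831 CPM at the periportal end, 4501 CPM in intermediate barcodes and 16363 CPM at the perivenous end, whereas Mup20 was at 33144, 26368 and 16739 CPM.

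Of 18 immediate early and stress genes, 5 were compared, each only because it passed 100 CPM at the perivenous end, so their order is no result. Junb, an AP-1 subunit gene and 1 of them, was at 28.9, 41.9 and 108 CPM. The nuclear transcript Malat1 was highest in group 4 of 10, at 8039 CPM, and lowest in group 7, at 2731 CPM, with a low-mt level of 2220.0 CPM. Neat1, the other nuclear transcript listed, was at 1278, 1174 and 1583 CPM and had a low-mt level of 86.3 CPM.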
